A study of Sus scrofa with 15 samples.

Results

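The genes described here encode 4 components of basement membranes: the laminin chains LAMB1 and LAMB2, nidogen 2 (NID2) and collagen XV (COL15A1). They were chosen by name, as the probe sets whose only gene symbol in the array annotation is one of these 4. A probe set is a group of short oligonucleotides that together report 1 transcript. The 4 genes had 5 probe sets, out of 23999 non-control probe sets and 6765 genes with a single symbol. LAMB1 had 2 probe sets, and the one with the higher mean over all arrays was taken as its main one.

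The study followed granulosa cells of porcine ovarian follicles while they dedifferentiated in culture into what the submitters call DFOG cells. Total RNA was taken at days 0, 1, 2, 4 and 7 of culture and measured on the Affymetrix porcine genome array, with 3 biological replicates a day and 15 arrays in all. No treatment or genotype separates the groups, so day 0 is the baseline for every later day. The labels do not say whether the replicates came from separate animals or cultures, and the p-values measure only the spread between these arrays. In such bulk samples, fewer cells of a type and less RNA per cell cannot be told apart.

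Basement membranes are thin extracellular sheets on which epithelial cells rest. Their laminin network is built from trimers of an alpha, a beta and a gamma chain, and the beta position can be filled by the chain from LAMB1 or by the one from LAMB2. Nidogens bridge the laminin and collagen IV networks, and collagen XV is a proteoglycan of the basement membrane zone that ties it to the fibrils beneath. In the ovary, granulosa cells sit on the follicular basal lamina, which separates them from the theca and its vessels. In the developing kidney glomerulus of the mouse, the beta 1 chain is replaced by beta 2 as the basement membrane matures, a well-known laminin beta switch.

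The beta chains moved in opposite directions during culture. LAMB1 was 134-fold higher and LAMB2 5.71-fold lower on day 7 than on day 0. NID2 and COL15A1 were not called on day 1 and rose between day 1 and day 2, after which COL15A1 rose further and no step of NID2 was called. NID2 was 12.1-fold and COL15A1 306-fold higher on day 7 than on day 0. Levels are log2 intensities, so 1 unit is a doubling, and the intensity of one probe set does not set its transcript's level against that of another. A change was called where limma gave an adjusted p (Benjamini-Hochberg) under 0.05 together with a log2 change of 1 or more in either direction.

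Before the single genes, some facts of the arrays bear on them. The lower quartile of the arrays lay at 4.41 to 4.68, and a value there or below is close to background. The arrays of replicate 1 stood apart from the others on all 5 days, on a principal component, number 3, that held 13.1% of the variance (29.4 to 48.1, against -41.4 to -5.78 for the other 10 arrays). The 3' minus 5' difference of the actin control probe sets tracks RNA integrity. It ran between 0.97 and 1.68 in the day 0 arrays and between 0.02 and 1.01 in those of days 1 and 2. It reached 2.12 on day 4 replicate 2 and ran between 0.19 and 0.59 on day 7, below all day 0 arrays. Replicate 1, which stood apart on component 3, also had the lowest actin difference of its day on all 5 days. The part of RNA integrity in the changes was not tested.

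**Figure D1:**
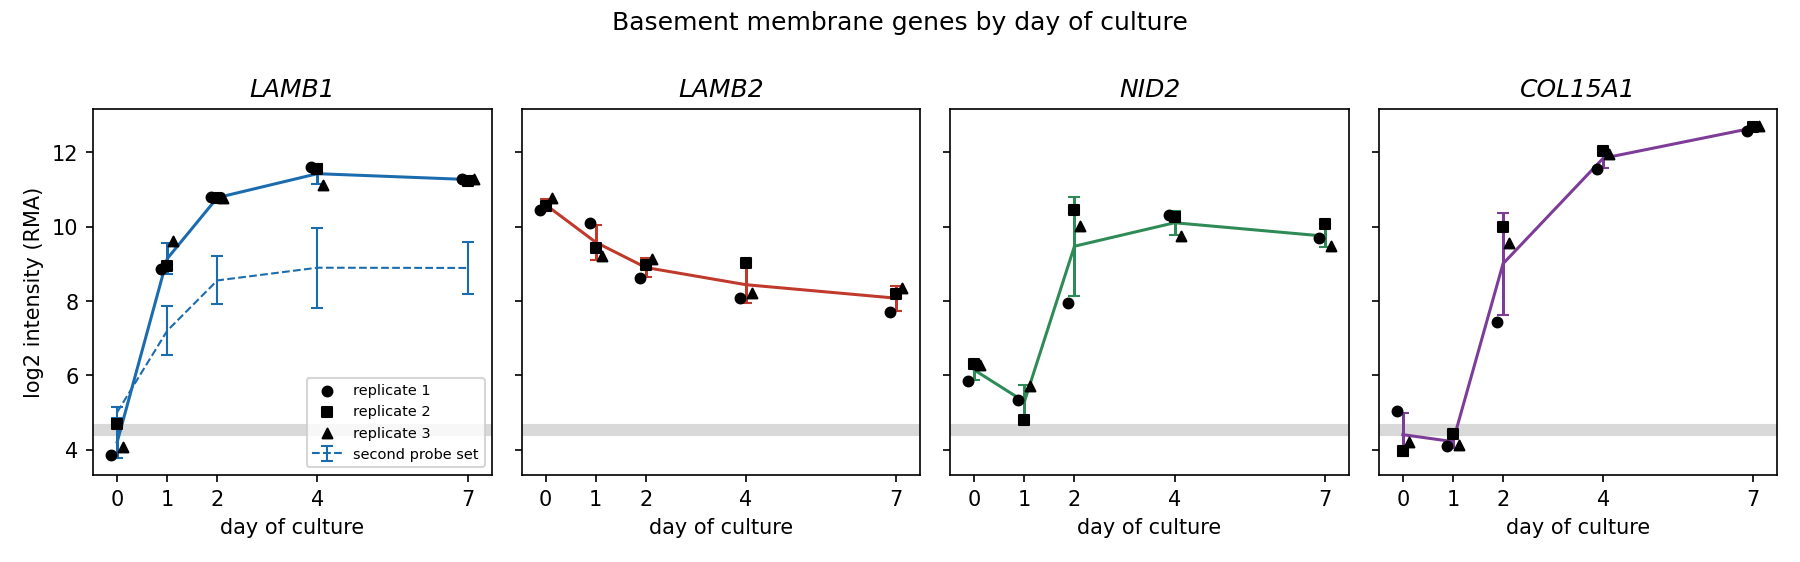
Log2 intensity of LAMB1, LAMB2, NID2 and COL15A1 (vertical axis) by day of culture (horizontal axis). Points are single arrays, lines join day means, bars are SD of 3 arrays, the dashed line is the second LAMB1 probe set and the grey band is the range of the arrays' lower quartiles. The LAMB1 mean lies below the band on day 0 and above it from day 1. The COL15A1 mean lies below it on days 0 and 1 and above it from day 2. LAMB2 declines, and day 2 replicate 1 lies low for NID2 and COL15A1.

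LAMB1 encodes the laminin beta 1 chain, a subunit of several laminins of embryonic and many adult tissues. On day 0 its main probe set read 3.85, 4.69 and 4.08. On day 1 it read 8.86, 8.96 and 9.61, and on day 2 10.81, 10.77 and 10.77. All day 1 arrays lay above all day 0 arrays, and all day 2 arrays lay above all day 1 arrays. Such separation, in either direction, was common on these arrays. It held for 37.0% of all probe sets on day 1 against day 0 and 21.0% on day 2 against day 1. On day 4 against day 2 it held for 17.5%, and on day 7 against day 4 for 10.6%. The day 4 values were 11.59, 11.57 and 11.12, and the day 7 values were 11.29, 11.24 and 11.28. Days 4 and 7 overlapped.

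The means were 4.21 ± 0.43 on day 0, 9.14 ± 0.41 on day 1, 10.78 ± 0.02 on day 2, 11.43 ± 0.26 on day 4 and 11.27 ± 0.03 on day 7 (SD, n = 3 each). LAMB1 rose by 4.94 ± 0.23 (SE) on day 1 against day 0, 30.6-fold (limma adjusted p = 2.09e-08). The day 0 mean lay below the lower quartile of each day 0 array, so the size of this change rests on values near background. Counted from the largest rise on day 1 against day 0, LAMB1 ranked 23 of 23999 probe sets. It rose again by 1.64 ± 0.23 on day 2 against day 1 (adjusted p = 0.00101). On day 4 against day 2 the log2 change was 0.65 with a 95% interval of 0.16 to 1.13. The 2 days did not overlap, but this step did not pass the test (adjusted p = 0.166). Between days 7 and 4 the difference was -0.16 (-0.64 to 0.33, adjusted p = 0.9997). In order of level the days ran 0, 1, 2, 7 and 4, and neither day 7 against day 2 (0.49, adjusted p = 0.265) nor day 7 against day 4 differed past the threshold.

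The second LAMB1 probe set rose on the same day by a smaller amount. It averaged 5.01 ± 0.14 on day 0, 7.20 ± 0.66 on day 1, 8.56 ± 0.65 on day 2, 8.90 ± 1.08 on day 4 and 8.89 ± 0.70 on day 7 (SD, n = 3 each). The change on day 1 against day 0 was 2.19 ± 0.51 (adjusted p = 0.00549), and that on day 7 against day 0 was 3.88 ± 0.51 (adjusted p = 4.62e-05). Its step on day 2 against day 1, 1.35 ± 0.51, did not pass the test (adjusted p = 0.160). From day 1 on, replicate 1 was its highest array, with 7.77 on day 1 against 6.48 and 7.36 for the others. Replicate 1 read 9.30 on day 2, 10.14 on day 4 and 9.69 on day 7, and the other arrays of those days lay at 8.12 to 8.60. On the main probe set the 3 arrays lay close together on these days, with SDs of 0.02 on day 2, 0.26 on day 4 and 0.03 on day 7.

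LAMB2 encodes the laminin beta 2 chain, which in mice and humans is needed in the glomerular basement membrane and at the neuromuscular synapse. Its probe set read 10.44, 10.57 and 10.77 on day 0. It read 10.10, 9.42 and 9.22 on day 1 and 8.61, 8.98 and 9.12 on day 2. Every day 1 array was below every day 0 array, and every day 2 array below every day 1 array. Of all probe sets, 37.0% and 21.0% did not overlap in these comparisons. On day 4 the values were 8.10, 9.01 and 8.21, and on day 7 they were 7.70, 8.18 and 8.35, so days 4 and 7 overlapped. Day 4 replicate 2, the array with the widest actin difference, was also the highest of its day for LAMB2. On days 0, 2, 4 and 7 replicate 1 was lowest both in actin difference and for LAMB2. On day 1 it was lowest in actin difference and highest for LAMB2. The part of RNA integrity in this was not tested.

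The LAMB2 means were 10.59 ± 0.16 on day 0, 9.58 ± 0.46 on day 1, 8.90 ± 0.27 on day 2, 8.44 ± 0.50 on day 4 and 8.08 ± 0.34 on day 7 (SD, n = 3 each). LAMB2 fell by 1.01 ± 0.28 on day 1 against day 0 (limma adjusted p = 0.0151, 95% interval -1.60 to -0.41), just past the minimum change of 1. That call was lost without day 0 replicate 3 (-0.92, adjusted p = 0.0578), day 1 replicate 2 (-0.93, adjusted p = 0.0559) or day 1 replicate 3 (-0.83, adjusted p = 0.0738). On day 2 it had fallen by 1.69 ± 0.28 (adjusted p = 3.99e-04), on day 4 by 2.15 ± 0.28 (adjusted p = 4.08e-05) and on day 7 by 2.51 ± 0.28 (adjusted p = 9.27e-06), each against day 0. None of the single steps after day 1 passed the test. They were -0.68 on day 2 against day 1 (adjusted p = 0.204), -0.46 on day 4 against day 2 (adjusted p = 0.540) and -0.36 on day 7 against day 4 (adjusted p = 0.9997). Day 7 was lower than day 1 by a called difference of -1.50 (adjusted p = 0.00160), so the decline went on after the first day in smaller steps.

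The beta switch was followed within each array as LAMB1 minus LAMB2, which removes anything that scales all probe sets of an array alike. The difference was -6.59, -5.88 and -6.68 on day 0. It was -1.25, -0.46 and 0.39 on day 1, then 2.20, 1.79 and 1.65 on day 2. On day 4 it was 3.50, 2.55 and 2.91, and on day 7 it was 3.59, 3.06 and 2.93. No array of day 0, 1 or 2 overlapped with an array of another day, and days 4 and 7 overlapped.

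On average the difference was -6.38 ± 0.44 on day 0, -0.44 ± 0.82 on day 1, 1.88 ± 0.28 on day 2, 2.99 ± 0.48 on day 4 and 3.19 ± 0.35 on day 7 (SD, n = 3 each). Relative to day 0 it moved by 5.94 on day 1, 8.26 on day 2, 9.37 on day 4 and 9.58 on day 7. Most of the movement on day 7 came from LAMB1, with 7.06 of it, and LAMB2 gave 2.51 as a fall. With the mean of both LAMB1 probe sets the movement was smaller, at 4.57 on day 1 and 7.99 on day 7. A ratio within an array shows unequal change only. The day on which it crosses 0 depends on the brightness of each probe set and is not the day on which the transcripts were equal.

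**Figure D2:**
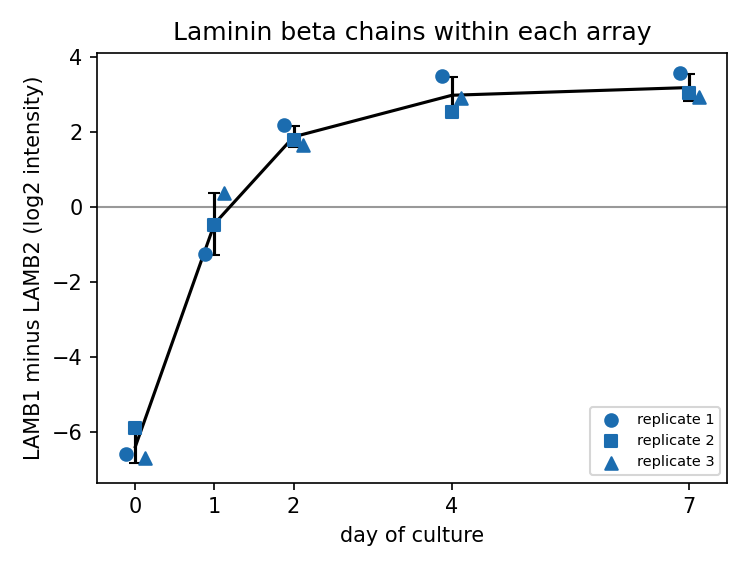
LAMB1 minus LAMB2 in log2 intensity within each array (vertical axis) by day of culture (horizontal axis). Points are single arrays and the line joins day means with SD of 3 arrays. The difference is -6.68 to -5.88 on day 0 and 2.93 to 3.59 on day 7, with the steepest part on the first day.

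NID2 encodes nidogen 2, one of a pair of nidogens that bind laminin and collagen IV. Its probe set read 5.84, 6.31 and 6.29 on day 0 and 5.34, 4.81 and 5.72 on day 1. Every day 1 array was below every day 0 array, yet the difference of -0.85 ± 0.48 did not pass the test (limma adjusted p = 0.243). Between these days 37.0% of all probe sets did not overlap. The values on day 2 were 7.95, 10.45 and 10.03, all above both earlier days, with replicate 1 far below the others. On day 4 they were 10.32, 10.26 and 9.74, and on day 7 they were 9.70, 10.07 and 9.47. Days 2, 4 and 7 overlapped.

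NID2 averaged 6.15 ± 0.27 on day 0, 5.29 ± 0.46 on day 1, 9.48 ± 1.33 on day 2, 10.11 ± 0.32 on day 4 and 9.75 ± 0.30 on day 7 (SD, n = 3 each). It rose by 4.18 ± 0.48 on day 2 against day 1, 18.2-fold (adjusted p = 3.04e-04), which ranked 8 of 23999 probe sets counted from the largest rise. Against day 0 it was higher by 3.33 ± 0.48 on day 2 (adjusted p = 1.43e-04), 3.96 ± 0.48 on day 4 (adjusted p = 2.54e-05) and 3.60 ± 0.48 on day 7 (adjusted p = 5.62e-05). The later steps did not pass the test, with 0.63 on day 4 against day 2 (95% interval -0.41 to 1.67, adjusted p = 0.688) and -0.36 on day 7 against day 4 (-1.40 to 0.68, adjusted p = 0.9997). In order of level the days ran 1, 0, 2, 7 and 4, and of the neighbours in this order only days 2 and 0 differed past the threshold.

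COL15A1 encodes the alpha 1 chain of collagen XV, whose C-terminal fragment restin resembles endostatin. Its probe set read low at first, at 5.05, 3.97 and 4.19 on day 0 and 4.10, 4.42 and 4.13 on day 1. Those days overlapped. It read 7.44, 10.01 and 9.56 on day 2, then 11.55, 12.04 and 11.95 on day 4 and 12.58, 12.68 and 12.71 on day 7. From day 1 to day 7 every array of a day was above every array of the sampled day before. Of all probe sets, 21.0%, 17.5% and 10.6% did not overlap at these steps, in order.

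COL15A1 averaged 4.40 ± 0.57 on day 0, 4.22 ± 0.18 on day 1, 9.00 ± 1.37 on day 2, 11.84 ± 0.26 on day 4 and 12.66 ± 0.07 on day 7 (SD, n = 3 each). The change on day 1 against day 0 was -0.19 (95% interval -1.24 to 0.86, limma adjusted p = 0.846). It rose by 4.79 ± 0.49 on day 2 against day 1, 27.6-fold (adjusted p = 1.30e-04), the largest rise of all 23999 probe sets for that step. It rose by a further 2.84 ± 0.49 on day 4 against day 2, 7.16-fold (adjusted p = 0.00405), a call that was lost when only the 6 arrays of those days were fitted (adjusted p = 0.0862). The last step, 0.82 on day 7 against day 4 (-0.23 to 1.87), did not pass the test although the arrays did not overlap (adjusted p = 0.9997). The change on day 7 against day 0 was 8.26 ± 0.49 (adjusted p = 2.75e-08), ranked 3 of 23999 counted from the largest rise. In order of level the days ran 1, 0, 2, 4 and 7, and the neighbours that did not differ past the threshold were days 0 and 1 and days 4 and 7. The means of days 0 and 1 lay below the lower quartiles of the arrays, although day 0 replicate 1, at 5.05, lay above them, so the sizes of the rises rest on values near background.

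Day 2 replicate 1 was far below the other day 2 arrays for NID2 and COL15A1. NID2 on that array minus the mean of the other day 2 arrays was -2.28, and the same difference for COL15A1 was -2.34. Among all probe sets these were the 9th and the 7th largest shortfalls of that array. LAMB1 there differed from the other arrays' mean by 0.03. LAMB2 differed by -0.44 and was also lowest on that array. Over the 1277 probe sets called higher on day 4 against day 1, the median difference of the array was -0.08, and it was the lowest of the 3 in 47.6% of them, against 49.4% of all probe sets. Without replicate 1 of every day, the step on day 2 against day 1 was 4.97 for NID2 and 5.51 for COL15A1. In the same fit the NID2 fall on day 1 against day 0 passed the test (-1.03, adjusted p = 0.0250).

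**Figure D3:**
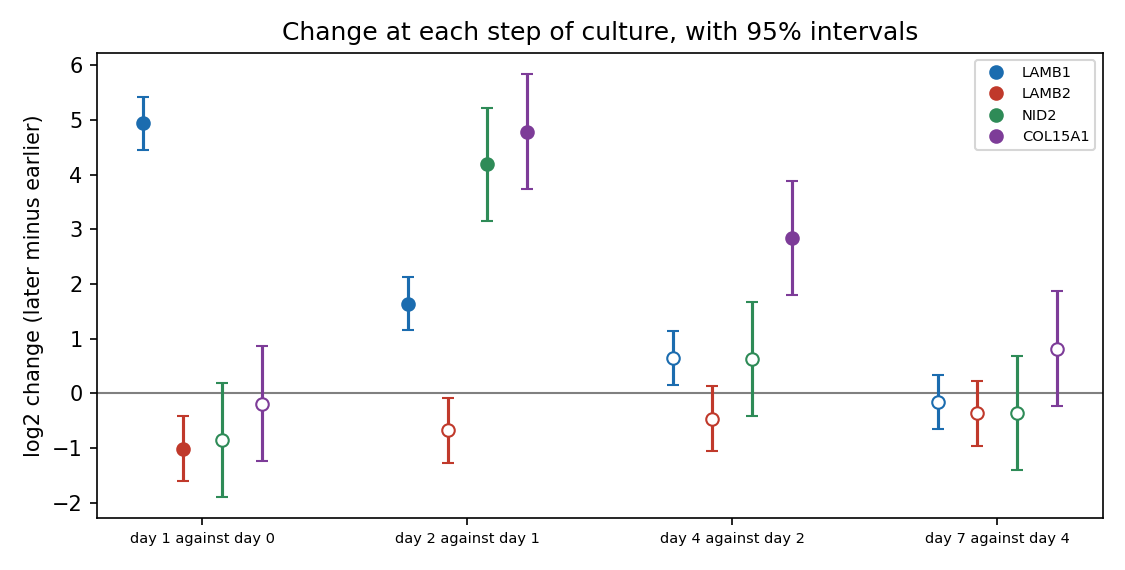
Log2 change of each gene at each step of culture, later day minus the sampled day before it (vertical axis). Points are limma estimates with 95% intervals, filled where the change was called and open where it was not. LAMB1 has its largest step on day 1 against day 0 and NID2 and COL15A1 have theirs on day 2 against day 1, and no gene is called on day 7 against day 4.

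Counted over comparisons, 2 of the 4 genes were called on day 1 against day 0, LAMB1 higher and LAMB2 lower, where 12.5% of all probe sets were called. All 4 were called on day 2 (13.8% of all probe sets), day 4 (15.9%) and day 7 (16.6%) against day 0, each time 3 higher and 1 lower. These comparisons share the day 0 arrays. On day 2 against day 1 LAMB1, NID2 and COL15A1 were called, 3 of 4, with 3.04% of all probe sets called. On day 4 against day 2 COL15A1 alone was called among the 4, with 2.53% of all probe sets. On day 7 against day 4 limma called 0 of 4, and 0 of 4 had an unadjusted p under 0.05, where 0.0583% of all probe sets were called (14, and 41 with the replicate number as a block). On day 7 against day 1 all 4 were called (9.03% of all probe sets), and on day 7 against day 2 only COL15A1 was called among them (4.73%). In the moderated F test over the whole course all 4 genes were called, with adjusted p of 4.16e-10 for LAMB1, 4.68e-05 for LAMB2, 4.06e-06 for NID2 and 2.48e-08 for COL15A1 (23.6% of all probe sets).

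The order of induction was described by the share of each gene's day 7 change that its mean had reached on earlier days. On the log2 scale LAMB1 had reached 69.9% on day 1 and 93.1% on day 2. LAMB2 had reached 40.2% of its fall on day 1, 67.2% on day 2 and 85.6% on day 4. NID2 stood at -23.7% on day 1 and 92.5% on day 2. COL15A1 stood at -2.26% on day 1, 55.7% on day 2 and 90.1% on day 4. LAMB1 and LAMB2 were thus first called against day 0 on day 1, and NID2 and COL15A1 on day 2. On day 2 COL15A1 had the smallest share of the 4, and on day 4 LAMB2 had. The log2 shares of LAMB1 and COL15A1 start from day 0 values near background, so they depend on that floor.

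Part of this order depends on the scale. On linear intensity LAMB1 had reached 22.9% of its day 7 gain on day 1 and 71.0% on day 2. NID2 had reached 103% on day 2, and COL15A1 only 9.76% on day 2 and 57.2% on day 4. By linear interpolation between days, 50% of the day 7 change was passed on day 0.716 for LAMB1, day 1.36 for LAMB2, day 1.63 for NID2 and day 1.90 for COL15A1 on the log2 scale. On the linear scale these were day 1.56 for LAMB1, day 0.844 for LAMB2, day 1.50 for NID2 and day 3.70 for COL15A1. By this measure COL15A1 came last on both scales. LAMB1 came first on the log2 scale, and on the linear scale it came after LAMB2. Its linear day of 1.56 lay close to the 1.50 of NID2. The NID2 day rests on a day 2 share that ran from 22.1% to 166% over the arrays (SD 73.5), so the order of these 2 genes is not settled on that scale.

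**Figure D4:**
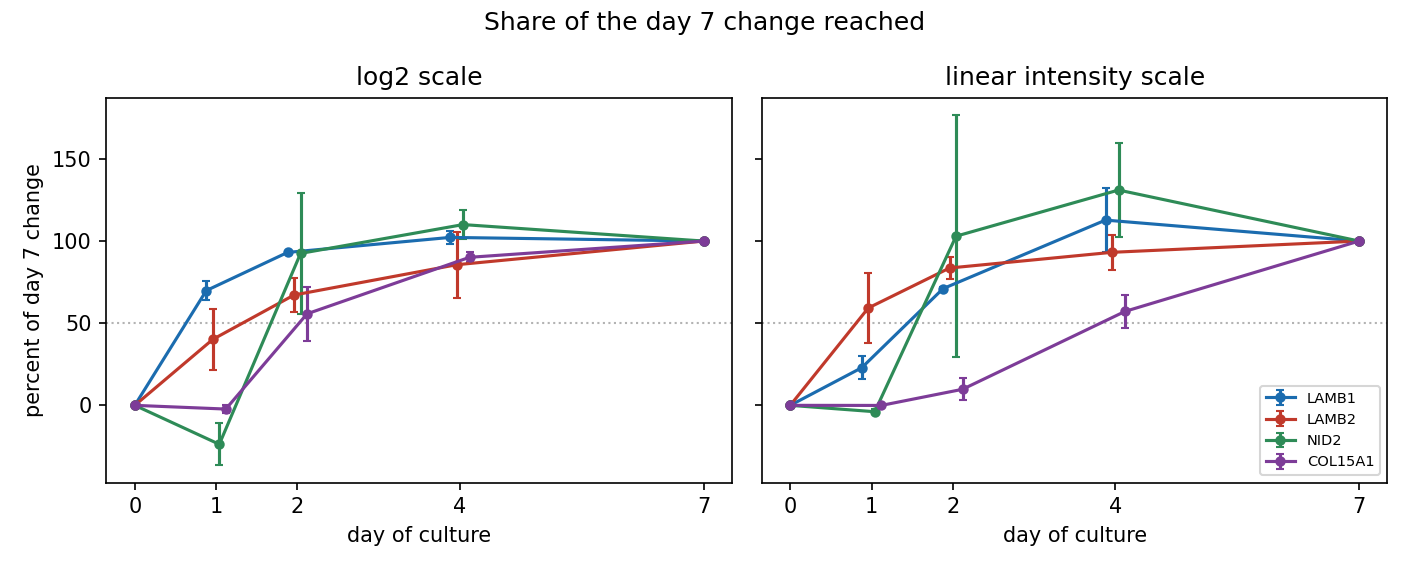
Share of the day 7 change reached (vertical axis, percent) by day of culture (horizontal axis) for the 4 genes, on the log2 scale in the left panel and on linear intensity in the right panel. Points are day means with SD of the 3 arrays, day 0 is 0 and day 7 is 100 by definition. COL15A1 is lowest on day 2 in both panels, at 55.7% and 9.76%.

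Over the 15 arrays the 4 profiles can be set beside each other with Pearson's r, as a description in which the arrays share the days. LAMB1 ran opposite to LAMB2 (r = -0.897). NID2 and COL15A1 were the most alike pair (r = 0.936), and LAMB1 was less like NID2 (r = 0.710) and COL15A1 (r = 0.763). Among 694 genes called in the time course with day means spanning at least 2 log2 units, those most like LAMB1 were CAPG (r = 0.994), FHL2 (r = 0.991), SHROOM3 (r = 0.988), CAP1 (r = 0.987) and ACVR1 (r = 0.987). CAPG caps actin filaments and SHROOM3 binds actin. Those most like LAMB2 were SLA-DMA, ZNF3, DLG3, PPAT and PLA2G1B, with r of 0.950 to 0.959. NID2 was most like LGALS1 (r = 0.957), which encodes a galactoside-binding lectin, followed by TRH, SDF2L1, COL15A1 and C1QTNF6 (r = 0.936 to 0.945). COL15A1 was most like CPM (r = 0.989), a membrane carboxypeptidase, followed by MEIS1, WFDC1, RGCC and CTSH (r = 0.973 to 0.983).

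The other basement membrane genes were taken from a list of 78 structural proteins, receptors, collagen-folding enzymes, proteases and inhibitors, of which 34 had a named probe set. Core components mostly had no probe set with a single gene symbol, and probe sets without a symbol were not searched for them. Beside the 4 genes, there was a named probe set for 1 of 10 laminin subunits (LAMC1) and 1 of 7 genes listed with collagen IV (COL4A2). For nidogens and heparan sulfate proteoglycans it was 0 of 3. On day 7 against day 0, 16 of the 34 (47.1%) were called, 14 higher and 2 lower, with a median log2 change of 0.57 against -0.05 over all probe sets, of which 16.6% were called. Of the 16, 9 were proteases or inhibitors and 4 were receptors. On day 1 against day 0, 6 of 34 (17.6%) were called, 4 higher and 2 lower, with a median of -0.01, where 12.5% of all probe sets were called. On day 2 against day 1, 8 of 34 (23.5%) were called, all higher, where 3.04% of all probe sets were called. On day 7 against day 4, limma called 0 of 34, and 2 had an unadjusted p under 0.05, as did 1111 of all 23999 probe sets.

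Among the other 9 structural proteins measured, 2 were called on day 7 against day 0, SPARC higher and COL4A2 lower. That is not far from the 16.6% of all probe sets called. LAMC1, the gamma 1 chain that joins beta 1 or beta 2 in most laminins, had a change of 0.19 ± 0.16 on day 7 against day 0 on its brightest probe set (limma adjusted p = 0.391, 95% interval -0.14 to 0.53). Its other 3 probe sets gave 0.72, 0.76 and 1.18, and only the last was called (adjusted p = 0.0178), so the probe sets of LAMC1 disagree. COL4A2, the alpha 2 chain of collagen IV, fell by 1.32 ± 0.47 on day 7 against day 0 (adjusted p = 0.0470). That call was lost in 8 of the 15 fits that left out 1 array, over which the change ran from -1.58 to -0.85. SPARC, a matrix glycoprotein that binds collagen IV, rose by 2.23 ± 0.15 on day 7 against day 0 on its brightest probe set (adjusted p = 7.50e-08), and its second probe set gave 0.32 and was not called.

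Receptors link cells to these sheets and proteases cut them. Of 7 receptor genes, 4 (57.1%) rose on day 7 against day 0, where 16.6% of all probe sets were called. These were the syndecans SDC1 (3.95 ± 0.39, limma adjusted p = 3.75e-06), SDC2 (2.66 ± 0.26, adjusted p = 2.78e-06) and SDC4 (1.40 ± 0.22, adjusted p = 2.38e-04) and the collagen and laminin receptor subunit ITGA2 (2.60 ± 0.58, adjusted p = 0.00323). Of the other 3 SDC1 probe sets, 2 were called higher (4.11 and 2.84), and the last gave -0.47 and was not called (adjusted p = 0.0901). The second SDC2 probe set was called higher (1.43), and the second ITGA2 probe set gave 0.48 and was not called. ITGB1, the beta 1 integrin subunit, changed by 0.84 ± 0.13, under the minimum change (adjusted p = 1.80e-04). Of 12 proteases and inhibitors, 8 rose and 1 fell (75% called) on day 7 against day 0.

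The protease inhibitor TIMP1 rose by 3.28 ± 0.16 (limma adjusted p = 5.36e-09), the plasminogen activators PLAT by 3.20 ± 0.24 (adjusted p = 2.84e-07) and PLAU by 2.54 ± 0.22 (adjusted p = 7.54e-07), and the gelatinase MMP2 by 2.93 ± 0.33 (adjusted p = 1.08e-05), all on day 7 against day 0. BMP1, a procollagen C-proteinase, fell by 2.44 ± 0.46 on the same days (adjusted p = 9.98e-04), and its second probe set gave -0.47 and was not called. Of 6 collagen-folding genes 1 was called on day 7 against day 0 (16.7%, against 16.6% of all probe sets). This was P4HA2, a prolyl hydroxylase subunit (1.61 ± 0.16, adjusted p = 2.99e-06), with 1.30 on its second probe set, also called. It was lower on day 1 against day 0 (-1.50 ± 0.16, adjusted p = 1.29e-05) and rose on day 2 against day 1 (1.10 ± 0.16, adjusted p = 0.00127) and on day 4 against day 2 (1.72 ± 0.16, adjusted p = 5.38e-05), both steps at which COL15A1 also rose.

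**Figure D5:**
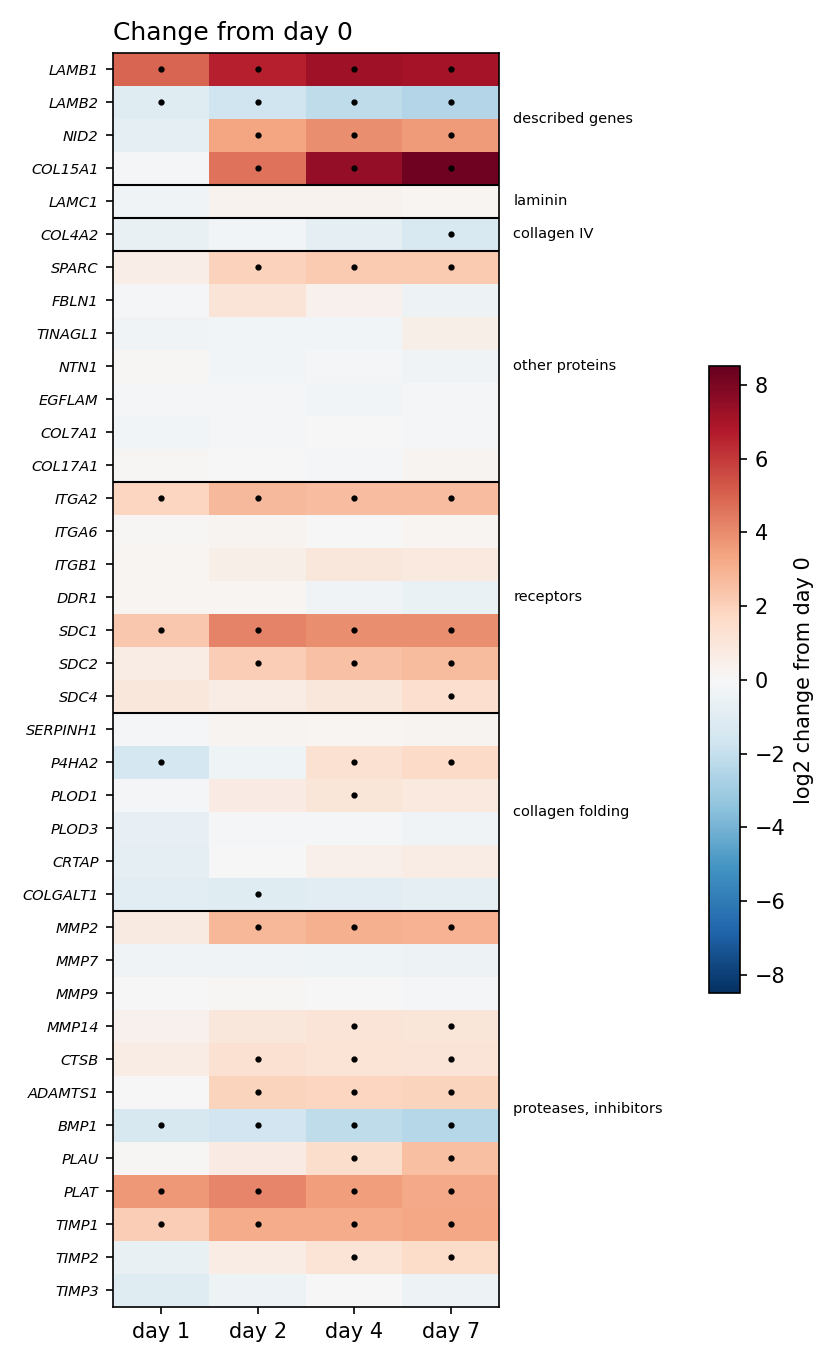
Log2 change from day 0 on days 1, 2, 4 and 7 (columns) for the 4 genes and the other 34 basement membrane genes (rows, grouped by role), 1 probe set a gene. Colour gives the change and a dot marks a called change. The 4 genes fill the top rows, with LAMB1 and COL15A1 the darkest on day 7 at 7.06 and 8.26.

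Cell type markers were measured beside these changes, since all 4 genes are also made by other cells of the ovary. The mean log2 level of 10 granulosa markers, such as the inhibin subunit INHA and the steroid dehydrogenase HSD17B1, lay between 9.53 and 9.67 over the day 0 arrays and between 8.26 and 8.65 over those of day 1. It then lay between 7.77 and 8.00 (day 2), 6.90 and 7.05 (day 4) and 6.60 and 6.72 (day 7). None of the 10 was at or below the lower quartile on every array of day 0. On day 7 against day 0, 5 of the 10 were called lower, among them INHA (log2 change -7.21) and HSD17B1 (-7.89). The other 5 were not called, and 16.6% of all probe sets were. Not every call was a fall, as GATA4 was called higher on day 1 against day 0 (1.16). FSHR was called lower on day 1 (-1.33) and higher on day 2 (1.23), each against day 0. The mean of 6 smooth muscle and pericyte markers lay between 5.46 and 6.21 (day 0), 7.69 and 8.11 (day 1), 8.84 and 9.06 (day 2), 9.64 and 9.88 (day 4) and 9.50 and 9.97 (day 7). On day 7 against day 0, 5 of 6 were called higher, among them the contractile genes ACTA2 (6.55) and CNN1 (6.79). RGS5 was among the 5 too, but it was called lower on day 7 against day 1 (-2.52) and against day 2 (-3.22). PDGFRB and DES were also among them, and their second probe sets gave -0.06 and -0.07 and were not called. The mean of 8 theca and stroma markers lay between 6.67 and 6.75 (day 0), 6.06 and 6.20 (day 1), 6.47 and 7.16 (day 2), 6.85 and 7.80 (day 4) and 7.98 and 8.14 (day 7). Of these 8, DCN, LUM, COL1A2 and THY1 were called higher and INSL3 and LHCGR lower on day 7 against day 0. DCN changed by 7.22 on the probe set used, but its second probe set gave 0.10 and was not called (adjusted p = 0.660). The other THY1 probe sets gave 1.72, which was called, and 0.75, which was not, and the second probe sets of COL1A2 (1.32) and LHCGR (-6.18) were called in the same direction as the first.

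These markers moved over the same days as the 4 genes, and their part in the changes was not tested. Of 10 endothelial markers, CDH5, KDR and TEK were at or below the lower quartile of the arrays on all 15 arrays, and the list's mean lay between 5.26 and 5.45 over the day 7 arrays and between 5.08 and 5.39 over the day 0 arrays. PECAM1 and ERG were called higher and TIE1 lower on day 7 against day 0, and the second PECAM1 probe set was called at 1.11. Of 7 leukocyte markers, PTPRC was at or below the lower quartile on all 15 arrays, and CD14 alone was called, with 1.67 on day 7 against day 0. Its second probe set gave 0.14 and was not called (adjusted p = 0.670).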

How the data were processed

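Total RNA from 15 samples was labelled with biotin and hybridised to Affymetrix porcine genome arrays, 3 for each of days 0, 1, 2, 4 and 7, per the labels. The authors deposited log2 intensities, 1 per probe set and array, made with RMA per the submitters' processing notes, with a version not given in the sources used here. RMA sets the arrays to one distribution, so a change shared by most transcripts would not show, and it compresses changes of dim probe sets. The number of arrays limits the precision. All columns were mapped to samples (0 were not), and 0 of 105 pairs of arrays were identical. Arrays of the same day correlated at 0.963 to 0.996.

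Of 23999 probe sets tested, after 124 controls were left out, 10069 had 1 gene symbol in the platform annotation, 198 had several and 13732 had none. For a gene with several probe sets, the one with the highest mean was used. The others are given for the 4 genes and, where the text names a change on day 7 against day 0, for genes of the lists. No position or sequence is printed, because no genome or sequence table was used here.

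A linear model with 1 mean for each day was fitted to the 15 arrays together (limma 3.58.1, R 4.3.3, empirical Bayes), with Benjamini-Hochberg adjustment over all probe sets. SE and 95% intervals come from this fit. A call needed an adjusted p under 0.05 and a log2 change of at least 1. The code was tested on simulated data. The 4 genes, the gene lists and the tests were chosen with earlier results of these data known. The text names the 4 genes, measured genes of the lists (from lists over 6 genes up to 6, those with the largest change on day 7 against day 0), and for each of the 4 the 5 genes with the highest Pearson r. A few markers were named outside this rule, as defining ones of their cell type or because they went against most of their list.

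Replicate numbers come from the sample titles. Same-numbered arrays deviated together from their day means, with correlations over 0.1 for every pair in all comparisons tested for this except day 1 against day 0 (0.0609 to 0.333). Alternatives were 3 other normalizations, a filter on dim probe sets, trend and robust settings, the replicate block, only the arrays compared, no minimum change, each array left out, and replicate 1 left out. Alternatives for COL4A2 and the counts of the other basement membrane genes were chosen after seeing the data.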

Additional observations from a re-analysis of the deposited data

How the results depend on the processing

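The 32 tests on the 4 genes were refitted 772 times. Of these refits, 767 kept the side of the threshold, 4 lost a call, 1 gained one and 0 reversed a called change. Many of them could hardly move a call, so the tally does not measure robustness. Leaving out an array of a day outside a comparison keeps its log2 change and alters only the spread and adjusted p. Dropping the minimum change cannot lose a call. Changes that were not called could switch direction. Leaving out 1 array, COL15A1 on day 1 against day 0 ran from -0.41 to 0.14. NID2 on day 4 against day 2 ran from -0.13 to 1.12. Leaving out 1 array, the LAMB2 change on day 1 against day 0 ran from -1.27 to -0.83, and without replicate 1 it was -1.35 and called. The call was lost in 3 of the 6 fits that left out an array of day 0 or day 1. Arrays of other days cannot move this change. The NID2 change on day 1 against day 0 ran from -1.07 to -0.61 without 1 array, and was -1.03 and called without replicate 1. The COL15A1 step on day 4 against day 2 was 2.84 with only the 6 arrays compared and was no longer called. The cause was not tested.

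With the replicate number as a block, the pairing changed no call on the 4 genes, and the count on day 7 against day 4 was 41 in place of 14. That count was also 4 without the dimmest 40% of probe sets, 0 with only the 6 arrays compared, 55 without replicate 1 and 4 to 15 without 1 array (4 without day 4 replicate 2, 9 without day 7 replicate 2). The count on day 4 against day 2 was 371 in place of 608 with only the 6 arrays compared. The count on day 2 against day 1 was 451 to 986 without 1 array, lowest without day 2 replicate 3, 465 without day 2 replicate 2, 478 without day 1 replicate 2 and 1321 without replicate 1, in place of 729. With no minimum change, the counts against day 0 were 6020 on day 1, 6248 on day 2, 7360 on day 4 and 7514 on day 7, and 1461 on day 2 against day 1, 1002 on day 4 against day 2 and 8605 over the time course.

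With the mean of both LAMB1 probe sets, LAMB1 minus LAMB2 moved by 4.57, 6.75, 7.71 and 7.99 on days 1, 2, 4 and 7 against day 0. On linear intensity the shares of the day 7 change on days 1, 2 and 4 were 22.9%, 71.0% and 113% for LAMB1. They were 59.2% and 83.6% on days 1 and 2 for LAMB2, -3.88% and 131% on days 1 and 4 for NID2, and -0.0569%, 9.76% and 57.2% on days 1, 2 and 4 for COL15A1. The LAMB1 share on day 2 was 93.8% after a second quantile normalization and 92.4% with cyclic loess. The COL15A1 share on day 1 ran from -5.06% to 1.61% without 1 array, turning positive without day 0 replicate 1, around a change that was not called. Counts of the other basement membrane genes stayed within 1.5 times in the 5 comparisons tried without 1 array or without replicate 1. Values near the lower quartile of the arrays, LAMB1 on day 0 and COL15A1 on days 0 and 1, limit how far their folds can be read.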
